A study of Rattus norvegicus with 3 samples.

Results

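Metallothioneins and zinc handling genes were examined in the retina of newborn rats after an injection of streptozotocin (STZ) into the eye. The set holds 7 genes of the 18425 in the deposited table: the metallothioneins Mt1, Mt2A and Mt3, the transcription factor gene Mtf1, and the zinc transporter genes Slc30a1, Slc39a10 and Slc39a14. They were taken by symbol and were chosen on the readout itself, because Mt1 and Mt2A were higher in the STZ library, so the values of these 2 genes in that library are a description and support nothing further. Wild-type Sprague-Dawley rats received 1 µl of citrate buffer (pH 4.5), of saline, or of STZ in citrate buffer (10 µg) in the vitreous at postnatal day 1 (P1), and the retinas were taken at P4. For its tests of function and morphology the study gave STZ to one eye and buffer to the other eye of a rat, and whether the buffer and STZ libraries came from the same rats is not given in the sources used here. STZ is a glucose-linked nitrosourea that alkylates DNA. Each condition had 1 library, and the number of retinas behind a library is not given in the sources used here. No difference has a replicate check, no p-value could be computed, and the spread between animals is unknown.

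Metallothioneins are very small proteins, rich in cysteine, that bind zinc and copper and can take up reactive oxygen species. When free zinc rises in a cell, the zinc finger protein MTF1 binds metal response elements (MREs) in front of the metallothionein genes and of Slc30a1 and activates them, and it represses Slc39a10. Glucocorticoids, inflammatory cytokines and oxidative stress also induce Mt1 and Mt2A, while Mt3 is a form of the nervous system that responds little to metals. SLC30 proteins move zinc out of the cytosol and SLC39 proteins move it in. In the retina, glia and the pigment epithelium are known to make metallothioneins.

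Levels are given as FPKM, the authors' count of fragments scaled by transcript length and library size. The fold of a gene was (FPKM + 1)/(FPKM + 1). A gene was called higher or lower past thresholds of 0.62 and -0.62 on the log2 scale (a fold of 0.65 for the lower one). The added 1 shrinks folds at low levels. Each gene's count, as a share of its library's total, was therefore also compared as a count ratio with an exact Clopper-Pearson 95% interval. That interval covers counting error only and compares 2 libraries, not 2 conditions. The estimated counts summed to between 21977843 and 22031249 per library.

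The libraries were retinal but not equal in other tissue. All 10 retinal marker genes had reads in every library, with summed levels of 1470, 1430 and 1570 FPKM in buffer, saline and STZ. The saline library stood apart for 5 ciliary and iris epithelium markers, with sums of 50.8, 196 and 50.7 FPKM, and for 7 pigment epithelium markers, with 10.8, 34 and 11.9 FPKM. Rpe65, a defining gene of the mature pigment epithelium, was at 0 reads in buffer and at 2 in each of the other libraries. The STZ library stood apart for the lens crystallins Cryaa, Crygd and Cryba1, which carried most of a sum over 6 lens markers of 10.7, 31.4 and 174 FPKM. The defining lens marker Mip had 73.23, 73.21 and 86.29 estimated reads and was not called. Cryab and Bfsp1 were highest in saline, with 0.54, 4.83 and 3.8 FPKM and with 1.14, 2.52 and 2.08 FPKM. In STZ, 4 of the 6 were called higher against buffer and 3 against saline, beside 2.25% and 2.04% of all genes. In saline against buffer 5 of the 6 were called higher, beside 1% of all genes. The STZ library also held more of the 9 microglia markers, with 53.4, 64.7 and 160 FPKM, and less of the 5 astrocyte markers, with 14.7, 16.3 and 7.59 FPKM. Sums were also lower in STZ for 5 endothelium markers, with 117, 127 and 82.9 FPKM, and for 4 pericyte markers, with 10.5, 9.12 and 4.33 FPKM. Kdr, which was not called, carried most of the endothelium sum, with 105.92, 117.43 and 80.18 FPKM, while Cdh5 and Cldn5 were called lower against both controls. The sum of 4 Müller glia markers was 812, 830 and 687 FPKM, though none was called. Most of it was Dkk3, with 491.28, 507.53 and 391.75 FPKM. Rlbp1 was also lowest in STZ, Slc1a3 was highest there, and Glul lay between the controls. The part of these cell types in the metallothionein values was not tested. Fewer cells of a type and less RNA per cell cannot be told apart in such bulk samples.

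The 3 metallothionein genes lie side by side in the rat genome. In the RefSeq annotation of the assembly GRCr8 their order on chromosome 19 is Nup93, Mt1, Mt2A, Mt3, Mt4 and Bbs2. The 250 bases in front of each gene start are shown for Mt1, Mt2A and Mt3, because the first 2 were higher in STZ and the third was not, and for Slc30a1, the other classical MTF1 target. Capitals mark the MRE core, searched on both strands as TGCGCNC or TGCACNC. The sequences are those of RefSeq for GRCr8, while the files were made on rn6, and all are written 5′ to 3′ on the strand of the gene.
Mt1, GRCr8 chr19:10832976-10833225, minus strand: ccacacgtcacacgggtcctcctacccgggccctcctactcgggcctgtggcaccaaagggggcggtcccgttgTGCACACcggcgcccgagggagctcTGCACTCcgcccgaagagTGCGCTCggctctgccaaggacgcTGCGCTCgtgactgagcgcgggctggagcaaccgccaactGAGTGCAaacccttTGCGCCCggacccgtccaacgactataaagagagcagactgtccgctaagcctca
Mt2A, GRCr8 chr19:10838709-10838958, minus strand: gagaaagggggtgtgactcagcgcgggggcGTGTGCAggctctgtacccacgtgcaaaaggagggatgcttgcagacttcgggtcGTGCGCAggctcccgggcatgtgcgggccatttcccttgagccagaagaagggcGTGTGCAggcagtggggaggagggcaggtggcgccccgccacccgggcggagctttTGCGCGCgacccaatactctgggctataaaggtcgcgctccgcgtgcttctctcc
Mt3, GRCr8 chr19:10856081-10856330, minus strand: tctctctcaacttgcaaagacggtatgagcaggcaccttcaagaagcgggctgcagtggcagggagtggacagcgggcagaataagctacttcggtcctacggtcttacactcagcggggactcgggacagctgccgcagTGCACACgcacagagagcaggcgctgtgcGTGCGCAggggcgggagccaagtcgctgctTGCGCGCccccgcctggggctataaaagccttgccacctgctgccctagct
Slc30a1, GRCr8 chr13:106021769-106022018, plus strand: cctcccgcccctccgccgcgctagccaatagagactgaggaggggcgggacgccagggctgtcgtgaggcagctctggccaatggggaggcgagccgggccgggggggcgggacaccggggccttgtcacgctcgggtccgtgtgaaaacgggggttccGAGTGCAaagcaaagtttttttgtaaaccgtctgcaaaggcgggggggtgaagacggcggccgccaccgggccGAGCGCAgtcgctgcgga

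The Mt1 window held 6 matches to the MRE core, the Mt2A window 4, the Mt3 window 3, and the Mtf1 and Slc30a1 windows 2 each. Of all 33469 windows of this length in the RefSeq table, 20.6% held at least 1 match. At least 6 matches were in 0.0269% of windows, at least 4 in 0.266% and at least 3 in 1.17%. The match nearest the gene start began 55 bases before it in both Mt1 and Mt2A and 51 bases before it in Mt3, in front of a TATAAA box that began 31 or 32 bases before the start and that 12.9% of all windows held. The core of the antioxidant response element, TGACNNNGC, was found once in Mt1, 101 bases before the start, and once in Mt2A, 237 bases before it, and it was in 10.1% of all windows. It was also found once in Slc30a1 and at 2 places in Mtf1, a number that 0.627% of windows reached, and neither gene was called in STZ. Mt3 and Slc39a10 had no such match. A STAT site written as TTCNNNGAA, in 7.67% of all windows, was in none of the 6 windows searched. The Slc39a10 window held no MRE core, but its RefSeq start lies inside the span of the gene. No window for Slc39a14 was in the table. A match is a run of letters and shows no binding.

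**Figure D1:**
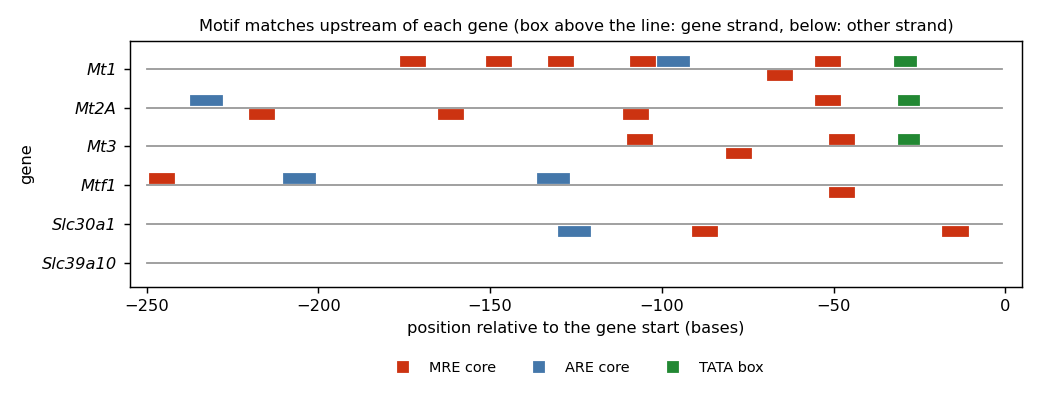
Positions of motif matches in the 250 bases before the start of 6 genes, with the distance from the gene start in bases on the horizontal axis and 1 line per gene; boxes above a line are matches on the gene's strand and boxes below it on the other strand. Mt1 carries 6 MRE cores, Mt2A 4 and Mt3 3, each with 1 TATA box near the start, and the Slc39a10 line is empty.

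Mt1 was by far the most abundant of the 7 genes per length of transcript. Its level was 53.09, 48.67 and 88.16 FPKM in the buffer, saline and STZ libraries (186, 169 and 310 reads). The STZ library was the high one, and the controls lay within counting error of each other. The fold was 1.65 against buffer and 1.8 against saline, both past the upper threshold. The count ratio was 1.66 against buffer (1.38 to 2.01) and 1.83 against saline (1.51 to 2.22). Between the controls, saline against buffer, it was 0.909 (0.734 to 1.13). Mt1 was the member closest above the upper threshold against buffer, and with a threshold of 2 it did not pass against either control. The member closest below was Slc30a1, at 1.23.

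Mt2A, which encodes the second metal-inducible form, had the largest fold of the 7 genes in STZ against each control, and in each control the fewest reads. It had 3.26, 6.88 and 15.64 FPKM in the buffer, saline and STZ libraries (11, 23 and 53 reads). The STZ library was the highest, its counting interval lay above that of each control, and the intervals of the controls overlapped. The fold was 3.91 in STZ against buffer and 2.11 against saline. The count ratios were 4.81 (2.48 to 10.2) and 2.3 (1.38 to 3.93). Mt2A also passed the threshold between the controls, where saline was higher than buffer with a fold of 1.85, but the count ratio of 2.09 had an interval that held 1 (0.98 to 4.75). On CPM values that fold was 1.36 and no longer passed. Since 1 was also added to CPM values of only 0.5 in buffer and 1.05 in saline, that lost call is no check of the difference. The size of the Mt2A difference therefore depended on which control was used, and its buffer value rested on 11 reads.

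Mt3 did not follow its neighbours. It had 7.74, 9.38 and 5.87 FPKM in the buffer, saline and STZ libraries (25, 30 and 19 reads), so the STZ library was the lowest. The fold was 0.786 against buffer and 0.662 against saline, just above the lower threshold of 0.65. With a pseudocount of 0.1 in place of 1 the second fold was 0.63 and with TPM it was 0.646, both past it. The count ratios of 0.759 (0.395 to 1.43) and 0.632 (0.336 to 1.16) had intervals that held 1, so a change in either direction was not detectable at this depth. Gfap, the defining astrocyte marker, had 6.26, 7.6 and 3.95 FPKM in buffer, saline and STZ. Beside 1.04% and 1.75% of all genes, 3 of the 5 astrocyte markers were called lower against buffer and 4 against saline. Their part in the Mt3 values was not tested.

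The 3 metallothioneins together made up 0.0125% of all FPKM in buffer, 0.0127% in saline and 0.0214% in STZ. Their reads numbered 222 in each control and 382 in STZ. The sum was thus alike in the controls, while the part of Mt2A in it was larger in saline than in buffer, from 23 and 11 reads. Mt2A gave 5.58% of the reads of Mt1 and Mt2A in buffer (Clopper-Pearson 95% interval 2.82 to 9.77), 12% in saline (7.75 to 17.4) and 14.6% in STZ (11.1 to 18.7). The intervals of buffer and saline overlapped in this share, as did those of saline and STZ, and buffer lay below STZ. In the same terms, the count ratio of Mt2A was 2.89 times that of Mt1 in STZ against buffer (1.44 to 6.29) but 1.26 times in STZ against saline (0.727 to 2.23). In saline against buffer it was 2.3 times (1.04 to 5.38). Per length, Mt1 was 16.3 times Mt2A in buffer, 7.07 times in saline and 5.64 times in STZ. Mt3 exceeded Mt2A in both controls, with Mt2A at 0.421 and 0.733 of the Mt3 level, and Mt2A was at 2.66 times the Mt3 level in STZ. The count ratio of Mt1 was 2.19 times that of Mt3 against buffer (1.12 to 4.33) and 2.9 times against saline (1.52 to 5.61). The ratios with STZ use the values that Mt1 and Mt2A were chosen on and are a description.

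These per-length levels rest on short divisors. The deposited FPKM and counts imply a length of 146 to 160 bases for the 3 metallothioneins, against 2377 to 6583 bases for the other 4 genes. A small error in the length would therefore move the metallothionein levels much more. The implied length was not the same in every library, at 159, 158 and 160 bases for Mt1 in buffer, saline and STZ. Whether such an error is equal in all libraries is not known. RefSeq lists 9 rat loci with metallothionein symbols, 5 of them protein-coding and 4 pseudogenes. Of these, 3 had rows in the deposited table, and Mt4 and the other loci were not analysed here. The authors discarded reads that map to several places, and how many metallothionein reads were removed in this way is not known.

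**Figure D2:**
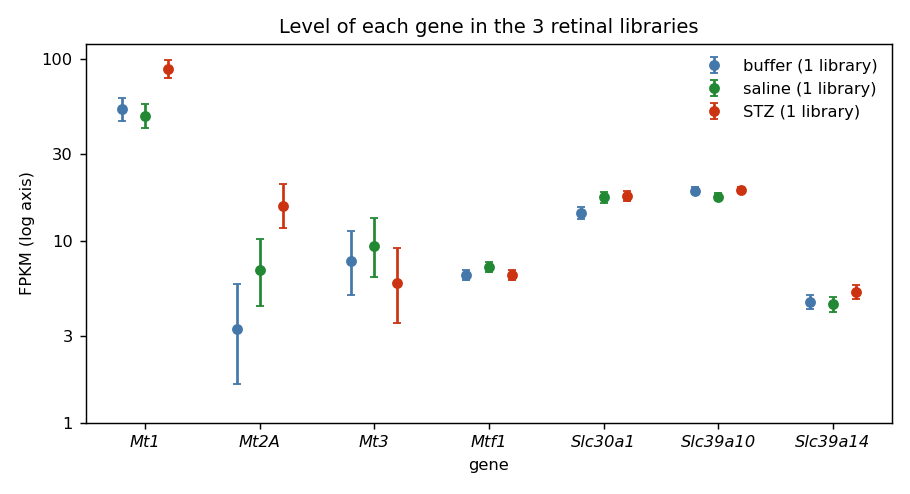
Level of the 7 genes in FPKM on a log axis, 1 point per library; bars are exact Poisson 95% counting intervals and not the spread between animals. Mt1 sits highest, at 48.67 to 88.16 FPKM, Mt2A climbs from 3.26 to 15.64 FPKM, and the bars of the other 5 genes in STZ overlap those of at least 1 control.

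The order of the levels differed between the libraries mainly in the place of Mt2A. In buffer the order was Mt1, Slc39a10, Slc30a1, Mt3, Mtf1, Slc39a14 and Mt2A. The counting interval of Mt3 there, 5.01 to 11.4 FPKM, overlapped those of Mtf1, Slc39a14 and Mt2A. That of Mt2A, 1.63 to 5.83 FPKM, also overlapped that of Slc39a14. In STZ it was Mt1, Slc39a10, Slc30a1, Mt2A, Mtf1, Mt3 and Slc39a14. There Mt2A, with an interval of 11.7 to 20.5 FPKM, overlapped both transporters above it. The interval of Mt3 in STZ, 3.53 to 9.17 FPKM, covered the levels of Mtf1 and Slc39a14 on either side of it, so its place there was within counting error. In saline Mt2A stood between Mtf1 and Slc39a14 with an interval of 4.36 to 10.3 FPKM, which overlapped those of Mtf1, Mt3 and Slc39a14. Mt1 was above every other member in all 3 libraries with no overlap.

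Mtf1, which encodes the zinc-sensing activator, was nearly level. It had 6.47, 7.19 and 6.51 FPKM in the buffer, saline and STZ libraries (914.46, 1035.36 and 944.14 estimated reads). The saline library was the highest, and buffer and STZ lay within counting error of each other. The count ratio was 1.03 in STZ against buffer (0.94 to 1.13) and 0.91 against saline (0.832 to 0.995). Saline against buffer gave 1.13 (1.04 to 1.24). Its counts were fractional, as were those of Slc39a10, and the error of estimating such counts is not part of their intervals.

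Slc30a1, which encodes the zinc exporter of the cell membrane, was higher in STZ than in one control and not the other. It had 14.2, 17.32 and 17.7 FPKM in the buffer, saline and STZ libraries (743, 905 and 928 reads). Buffer was the low library, and saline and STZ did not differ beyond counting error. The count ratio was 1.25 in STZ against buffer (1.13 to 1.38) and 1.02 against saline (0.932 to 1.12), and it was 1.22 in saline against buffer (1.1 to 1.34). No fold of Slc30a1 passed a threshold. The count ratio of Mt1 was 1.33 times that of Slc30a1 against buffer (1.08 to 1.65) and 1.79 times against saline (1.44 to 2.22), and that of Mt2A was 3.86 times (1.97 to 8.24) and 2.25 times (1.34 to 3.88).

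The importers differed little. Slc39a10, the gene that MTF1 represses, had 18.92 FPKM in buffer, 17.52 in saline and 19.08 in STZ, with count ratios of 1.01 in STZ against buffer (0.949 to 1.08) and 1.08 against saline (1.01 to 1.15). Slc39a14, which encodes an importer of zinc, iron and manganese that inflammation induces in liver, had 4.61, 4.49 and 5.25 FPKM from 469, 457 and 535 reads. The STZ library was the highest for both. The count ratio of Slc39a14 was 1.14 against buffer (1.004 to 1.29) and 1.17 against saline (1.03 to 1.33), and the controls differed by less than counting error. Neither gene passed a threshold in any comparison.

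By the thresholds, 2 of the 7 genes were higher in STZ than in buffer, where 2.25% of all 18425 genes were, and 0 were lower, where 1.04% were. Against saline the same count was 2 higher, beside 2.04% of all genes, and 0 lower, beside 1.75%. Since these 2 genes were chosen on that difference, nothing is read from the count. Between the controls, saline against buffer, 1 of the 7 was higher, Mt2A, beside 1% of all genes, and 0 were lower, beside 0.429%. The STZ comparisons share the STZ library and are not independent of each other.

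**Figure D3:**
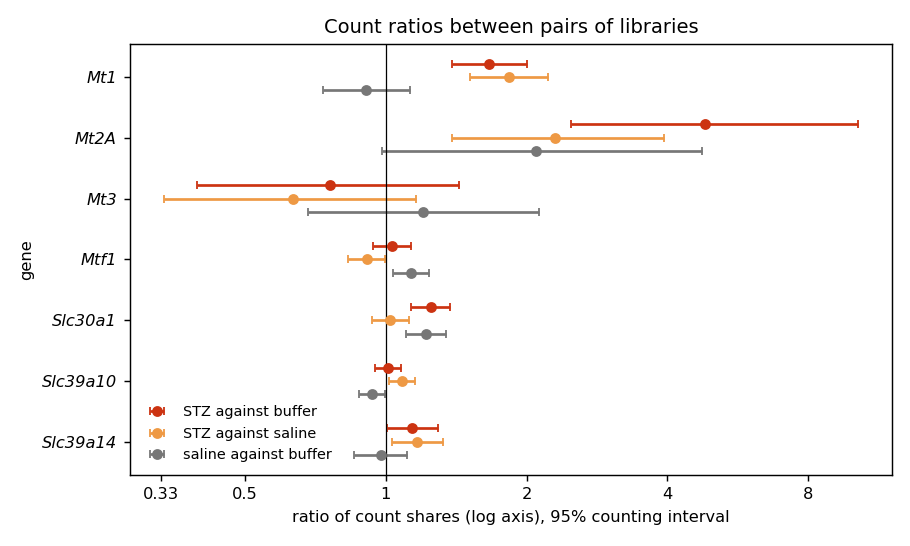
Ratio of count shares for the 7 genes in each pair of libraries on a log axis, with exact Clopper-Pearson 95% counting intervals; the vertical line marks no difference. Mt1 and Mt2A lie right of the line in both STZ comparisons, Mt3 crosses it in all comparisons, and the interval of Mt2A between the controls, 0.98 to 4.75, also crosses it.

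The flanking genes of the locus did not pass a threshold. Nup93, a nuclear pore gene next to Mt1, had 32.63 FPKM in buffer, 30.49 in saline and 33.82 in STZ, and Bbs2, a cilium gene beyond Mt4, had 31.5, 30.43 and 36.18 FPKM. Their folds in STZ were 1.04 and 1.14 against buffer and 1.11 and 1.18 against saline. Further out lay Slc12a3 and Ogfod1. The STZ fold of Slc12a3 was 1.03 with buffer as the control and 1.04 with saline. Its level was only 0.17, 0.15 and 0.2 FPKM in buffer, saline and STZ (11, 14 and 17 reads), where the added 1 leaves little room for a call. The STZ fold of Ogfod1 was at 0.894 with buffer as the control but at 1.16 with saline. Within this stretch, only Mt1 and Mt2A of the 7 genes with rows were called higher in STZ.

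Zinc transporters were then taken as whole families. For these and each later list, the shares of all genes were 2.25% higher and 1.04% lower in STZ against buffer. They were 2.04% and 1.75% in STZ against saline, and 1% and 0.429% in saline against buffer. Lists this short hold too few genes for a count of 0 or 1 to be set apart from those shares. Of the 10 SLC30 genes, 0 were higher and 1 was lower in STZ against buffer, and the counts were the same against saline. The gene was Slc30a10, which encodes an exporter known mainly for manganese. It had 59.47, 62.65 and 34.85 FPKM in the buffer, saline and STZ libraries (2631, 2768 and 1545 reads). STZ was far below both controls, which lay within counting error of each other. Its fold was 0.593 against buffer and 0.563 against saline, and its count ratio was 0.586 (0.55 to 0.624) and 0.557 (0.523 to 0.593). Slc30a9, the most abundant of the family, had 88.2, 83.09 and 94.11 FPKM.

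Of the 14 SLC39 genes, 0 passed a threshold in any of the 3 comparisons. In every library 4 of these and 2 SLC30 genes were below 1 FPKM, where the added 1 leaves little room for a call. Among them, Slc39a4 had 32 reads in STZ against 16 in buffer and 17 in saline. The count ratios were 2 (1.06 to 3.9) and 1.88 (1.01 to 3.6), though each fold was only 1.19. The intervals of Slc39a2, Slc39a8, Slc30a2 and Slc30a8 held 1 against both controls, and Slc39a12 had at most 1 read per library. Without Slc30a10, the folds of the other 23 transporter genes lay between 0.849 for Slc39a9 and 1.23 for Slc30a1 against buffer, between 0.823 for Slc39a9 and 1.29 for Slc39a13 against saline, and between 0.884 and 1.25 from one control to the other. Slc39a7, which releases zinc from the secretory pathway, had 44.68 FPKM in buffer, 45.61 in saline and 48.75 in STZ, and Slc39a1, an importer of the cell membrane, had 32.51, 31.53 and 32.19 FPKM. The median log2 fold against buffer was 0.13 over 8 exporters and 0.12 over 12 importers with a mean of at least 10 counts, beside 0.03 over all 14885 such genes. For the exporters it was -0.04 against saline.

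**Figure D4:**
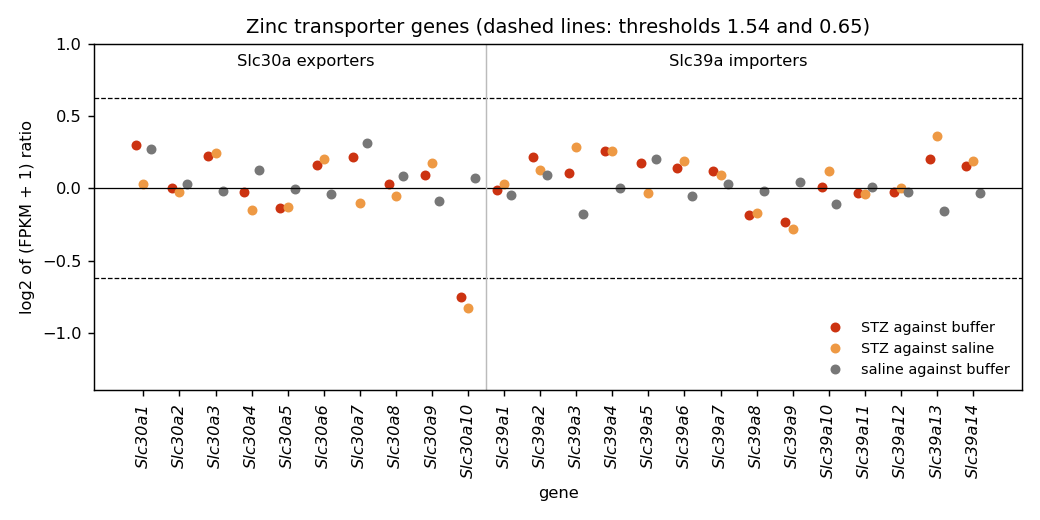
Log2 of the (FPKM + 1) ratio for the 10 SLC30 and 14 SLC39 genes, 1 point per comparison; the dashed lines are the thresholds at 0.62 and -0.62. All points lie between the lines except those of Slc30a10 in both STZ comparisons, at -0.75 and -0.83.

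The genes that MTF1 is known to control were listed with both activated targets and the repressed Slc39a10. Of the 10 with rows, 2 were higher in STZ against each control, and these were Mt1 and Mt2A themselves. The median log2 fold against buffer was 0.01 over 9 genes, which was the value of Slc39a10 itself. The list joins activated and repressed genes and holds Mt1 and Mt2A, chosen on this contrast. Its median therefore gives no direction for the activated targets. Gclc, the catalytic subunit gene of glutathione synthesis, had 15.66, 16.05 and 16.64 FPKM in buffer, saline and STZ, and Ndrg1 had 337.2, 372.96 and 338.3 FPKM. Sepw1, a small selenoprotein gene, had 342, 299.55 and 322.14 FPKM.

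Genes that handle copper and iron stayed within the thresholds. None of 10 copper genes and none of 12 iron genes was called in any comparison, with folds between 0.846 and 1.34 and between 0.939 and 1.34 in STZ against buffer. The copper chaperone gene Atox1 had 161.99, 166.81 and 136.96 FPKM, and Sod1, the copper-zinc superoxide dismutase, had 98.27, 100.85 and 103.37 FPKM. The ferritin genes Ftl1 and Fth1 had 692.14 and 359.35 FPKM in buffer and 759.71 and 416.48 FPKM in STZ, with folds of 1.1 and 1.16.

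Further lists held the targets of the other signals that induce metallothioneins. Of 12 glucocorticoid response genes, 1 was higher and 1 was lower against both controls. Sgk1, a kinase gene, had 1.97, 2.58 and 4.59 FPKM in buffer, saline and STZ and folds of 1.88 and 1.56. Ddit4, which encodes an inhibitor of mTORC1 signaling, had 154.29, 145.25 and 90.3 FPKM and folds of 0.588 and 0.624. The classical targets Fkbp5 and Tsc22d3 had folds of 0.918 and 1.01 against buffer. The median log2 fold over 11 genes was -0.03.

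Of 15 cytokine and STAT3 response genes, 5 were higher in STZ against buffer, beside 2.25% of all genes. Of these, 2 were also higher against saline, A2m and Lif, beside 2.04% of all genes. A2m, which encodes a protease inhibitor of the acute phase, had 13.16, 14.83 and 32.71 FPKM, with folds of 2.38 and 2.13. Lif, a cytokine gene, had 0.13, 0.11 and 0.97 FPKM from 7, 3 and 39 reads and folds of 1.74 and 1.77. Stat3 had 18.73, 21.48 and 29.49 FPKM with folds of 1.55 and 1.36, so it passed against buffer only, as did Cebpd and Timp1. Cntf was called lower against saline, and Serpina3n, with 2 reads in buffer, was called higher in saline against buffer. The median log2 fold of this list was 0.41 against buffer and 0.03 against saline, and it was 0.23 in saline against buffer.

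Of 10 NRF2 targets, Hmox1 alone was higher against both controls, with 8.05, 7.48 and 17.55 FPKM and folds of 2.05 and 2.19. Its controls lay within counting error of each other, as those of Mt1 did. The median log2 fold of the list was 0.09 against each control, and Slc7a11 was called higher in saline against buffer. Among 10 heat shock genes none was called in STZ, with Hsp90aa1 at folds of 1.28 and 1.33 and Hspa8 at 1.19 and 1.32, and Hspb1 was called higher in saline against buffer with 13 and 28 reads. The lists were described by these counts and medians, and none was tested as a set.

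**Figure D5:**
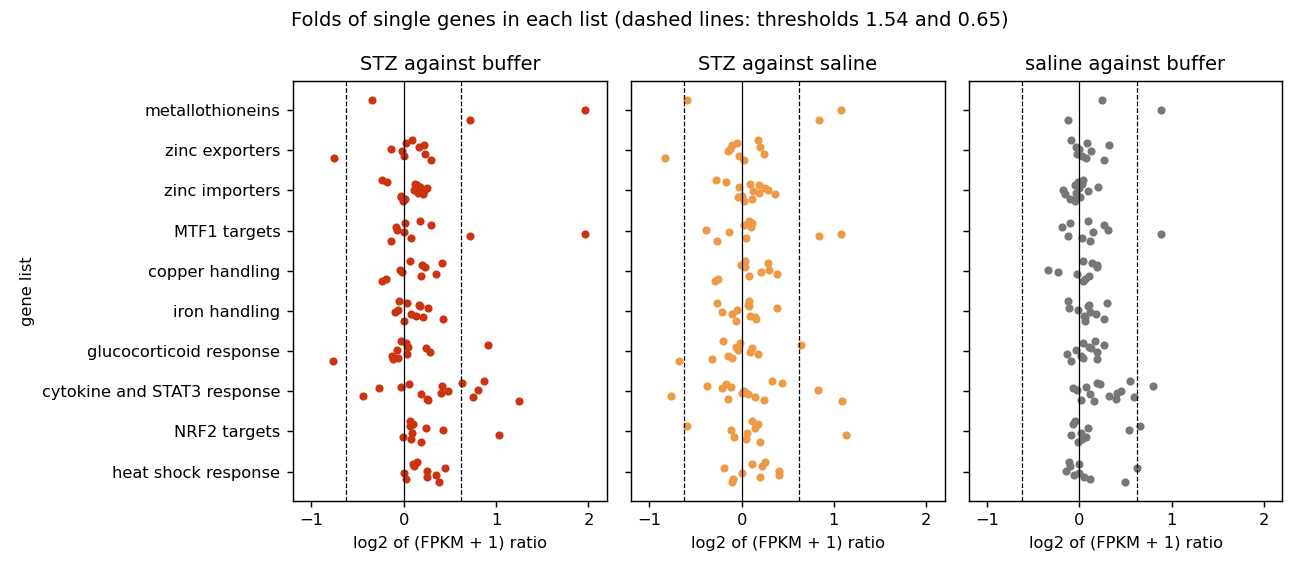
Log2 of the (FPKM + 1) ratio of single genes in 10 lists, 1 panel per comparison; the dashed lines are the thresholds at 0.62 and -0.62. Most points lie between the lines in each panel, Mt2A is the rightmost point of the left panel at 1.97, and 5 cytokine and STAT3 genes pass the upper line there.

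The genes whose pattern was most like that of Mt2A were found among 12630 genes with whole counts and a mean of at least 10. Likeness was the distance between the pairs of log2 folds in STZ against each control, so it rests on 3 libraries and the choice of the STZ contrast. The nearest were Apoe, Fcer1g, Psmb9, C1qb and Cd68, at distances of 0.228, 0.248, 0.269, 0.306 and 0.337. Counting intervals of the Mt2A count ratio ran from 2.48 to 10.2 against buffer and from 1.38 to 3.93 against saline. On the log2 scale both are wider than these distances. With that much counting error in Mt2A, the ranking cannot set these genes apart from others nearby. They were picked for these folds, so their likeness to Mt2A is no finding. Apoe, which encodes a lipid carrier, had 47.75, 72.15 and 163.99 FPKM in buffer, saline and STZ. C1qb, a complement gene and 1 of the microglia markers, had 11.01, 15.5 and 38.68 FPKM. Of the 9 microglia markers, 7 were called higher in STZ against each control, beside 2.25% of all genes against buffer and 2.04% against saline. Between the controls 0 were called. The defining markers Aif1 and Csf1r had 9.08, 9.98 and 28.79 FPKM and 5.73, 6.9 and 11.52 FPKM. The part of microglia in the Mt1 and Mt2A values was not tested.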

How the data were processed

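Retinal RNA of 3 libraries was sequenced, 1 each for buffer, saline and STZ. The authors trimmed the reads, mapped them with TopHat2 (rn6 and TopHat2 per the submitters' processing notes), discarded reads with several locations, and deposited an FPKM, a TPM and an estimated count per gene. How the counts were estimated is not given in the sources used here. Between 12.9% and 13.2% of the counts per library are fractional, and they were rounded for intervals. Of the 18425 gene identifiers, 17120 matched RefSeq.

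The members and gene lists were chosen with earlier results of these data known. Named were the 7 members, list genes called against both controls (otherwise the pair with the highest mean FPKM) with others named after their values were seen, and the 5 genes nearest Mt2A. With 1 library per condition no count model was fitted and no p-value given. The reads carry no molecular identifiers, so intervals cover counting error only. The fold formula and thresholds follow the methods of the study. Results were recomputed with pseudocount 0.1, with fold thresholds 2 and 0.5, with genes at a mean of 10 counts or more, TMM factors (edgeR 4.0.16), median-of-ratios factors (DESeq2 1.42.0, R 4.3.3), TPM, CPM, whole counts only, and against saline or averaged controls. Python 3.11.15, scipy 1.17.1 and pandas 2.3.3 were used, and the calculations were tested on simulated data.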

Additional observations from a re-analysis of the deposited data

How the results depend on the processing

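There were 140 alternative values for the folds of the 7 genes in 3 comparisons. Of these, 130 stayed on the same side of the threshold and within the counting interval of the count ratio, rescaled to the fold. Of the called folds, 0 changed direction. Part of the 130 was fixed in advance. Thresholds of 2 and 0.5 leave the fold unchanged, so a fold not called at first could not move. With saline as the control, the values repeat the STZ against saline folds. The tally is therefore no measure of stability. Over the alternatives in STZ against buffer, other controls included, the fold of Mt1 lay between 1.59 and 1.8, that of Mt2A between 2.11 and 4.68, that of Mt3 between 0.662 and 0.872 and that of Slc30a1 between 1.02 and 1.25. Mtf1, at 0.917 to 1.03, and Slc39a10, at 0.981 to 1.08, had no stable direction. With thresholds of 2 and 0.5, 1 of the 7 genes was higher against buffer in place of 2, since Mt1 no longer passed. As shares of the counts in place of FPKM, the metallothioneins held 0.00101% in both controls and 0.00173% in STZ. Among the listed genes, 9 higher and 2 lower in STZ against buffer became 17 higher with a pseudocount of 0.1, and 3 higher and 0 lower with thresholds of 2 and 0.5. The counts over all genes moved most with the pseudocount. In STZ against buffer, 415 higher and 191 lower became 1432 and 831 with a pseudocount of 0.1 and 166 and 52 with thresholds of 2 and 0.5, while the lower genes became 304 with TPM and 118 with whole counts only. In STZ against saline, 375 and 322 became 1265 and 1270, 130 and 85, and 575 and 513 with TPM. In saline against buffer, 185 and 79 became 1113 and 541, 72 and 28, and 350 and 130 with TPM, with 22 lower among whole counts only. Another pseudocount, other thresholds or fewer genes alter such counts by construction. FPKM summed to between 510974 and 513045 per library and TPM to about 1000000, so the added 1 weighs less on TPM values. The size of each move was not examined further. No replicate could be left out. No paired analysis was possible because each condition had 1 library. Depth limits Mt2A and Mt3 most, with 11 to 53 and 19 to 30 reads per library.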

Other observations

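By the same distance between log2 folds in STZ against each control, the genes most like Mt1 were Tmem119, Igf1, Lcp2, Pde6a and Sdsl, at 0.0298 to 0.079; they were chosen after their values were seen. Tmem119, a microglia marker, was covered by 56, 49 and 127 reads in the buffer, saline and STZ libraries, with folds of 1.62 and 1.82. Pde6a, a rod phototransduction gene, had 1619, 1529 and 2861 reads and folds of 1.73 and 1.82. Igf1, a growth factor gene, had 720, 689 and 1224 reads and folds of 1.69 and 1.79. Since the genes were picked for their likeness to Mt1 in these folds, the likeness is no finding.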
